A study of Mus musculus with 16 samples.

Results

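The 10 genes described here encode the glucose transporter and most of the enzymes through which a cell takes up glucose and turns it into lactate: Slc2a1, Hk1, Hk2, Pfkl, Aldoa, Tpi1, Pgk1, Pgam1, Pkm and Ldha. They were chosen by name, are all present in the deposited count tables, and are 10 of the 19822 genes detected there. Their levels were followed by Drop-seq, which tags the 3′ end of each captured mRNA with a cell barcode and a unique molecular identifier (UMI), in mammary tumours taken at end stage from 2 mouse models. The WB1P model is the WapCre;Brca1F/F;Trp53F/F female, whose mammary epithelium loses Brca1 and Trp53 through Cre driven by a milk-protein promoter. The WB1P-Myc model has the same deletions plus the conditional Col1a1invCAG-Myc-IRES-Luc allele, which adds Myc expression. Both models were on the FVB/n background and received no treatment. Live, DAPI-negative single cells were sorted and each suspension was run as 4 droplet fractions. The fractions are technical divisions of 1 suspension, so each model is 1 sample, the comparison between models has no replicate check, and no p-value was computed. The study names 2 mice for each model in a legend, without stating whether their cells were mixed. The methods and labels do not state whether both suspensions went through droplet generation in one session, so any effect of session cannot be told apart from that of the model.

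Glycolysis begins when glucose enters the cell through a transporter and is trapped by hexokinase as glucose 6-phosphate. Phosphofructokinase commits the sugar to breakdown, aldolase splits it, and the later enzymes harvest ATP and NADH on the way to pyruvate, which lactate dehydrogenase reduces to lactate. Tumour cells often run this route even where oxygen is present, and both MYC and the hypoxia-inducible factor HIF-1 are known to switch on many of its genes.

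The HiSeq tables held 1000 barcodes for each of the 8 libraries, with 256985 to 1918672 UMIs per library of WB1P and 3814562 to 4960334 per library of WB1P-Myc. Barcodes with 450 to 4000 genes and less than 20% mitochondrial UMIs left 4798 cells, 1307 of WB1P and 3491 of WB1P-Myc. WB1P fraction 1 stood apart, with 65 cells against 394 to 426 in the other WB1P fractions, and 60 of those 65 were epithelial-like. Across the 8 libraries 3 barcodes were shared. Clustering without the genes of interest gave 7 clusters, which were named from marker lists. Epithelial-like cells numbered 676 in WB1P, 658 of them in a cluster led by Csn3, Lcn2 and Chil1, and 1165 in WB1P-Myc, 1155 of them in another cluster led by Gpx2, Gcat and H19. WB1P-Myc tumours also held 1015 Schwann-like cells and 265 cells of an unnamed cluster led by Dlk1, Slc38a4 and Crabp1. Macrophage-like cells numbered 376 and 699, fibroblast-like cells 218 and 274, and endothelial-like cells 37 and 73, in WB1P and WB1P-Myc. The macrophage-like cluster also carried T and NK cell markers, and pericyte markers were among the leading markers of the fibroblast-like and endothelial-like clusters. The WB1P-Myc epithelial-like cluster had 0 epithelial markers among its 10 top genes, though 8 were leading markers. The border between the epithelial-like, Schwann-like and unnamed clusters moved with the clustering settings. At a Leiden resolution of 0.6, 405 WB1P-Myc cells were in a cluster led by Krt17 and Krt14. Another 439 were in an unnamed cluster with a median of 1168 UMIs per cell. The models were therefore compared in the union of the epithelial-like, Schwann-like and unnamed cells, called non-stromal, with the epithelial-like cells beside it. It held 676 cells of WB1P, all epithelial-like, and 2445 of WB1P-Myc. Brca1 was read at 5.39 and 15.4 UMIs per 1000000 (CPM) and Trp53 at 7.84 and 18.3 CPM in the non-stromal cells of WB1P and WB1P-Myc. Whether these 3′ tags lie in the deleted exons is not known, so these values check neither deletion.

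Levels are given as CPM, the UMIs of a gene per 1000000 UMIs of all genes in the pooled cells of a class, with exact 95% Poisson intervals. Ratios carry exact conditional 95% intervals. Intervals cover counting error only, and because the cDNA was amplified by PCR and the fractions are technical, they say nothing of the spread between tumours. A gene was counted as past the fold where its ratio was at least 2-fold in either direction with at least 50 UMIs over both pools.

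Summed over the 10 genes, the pooled level was 4031 CPM in Schwann-like cells and 3854 CPM in the epithelial-like cells of WB1P. These neighbours overlapped by fraction, with 4098, 3965, 4179 and 3876 CPM in Schwann-like and 5623, 4144, 3568 and 3535 CPM in WB1P epithelial-like cells, of which the highest was fraction 1 with its 60 cells. The macrophage-like cells of WB1P reached 3362 CPM. The epithelial-like cells of WB1P-Myc reached 2834 CPM, their macrophage-like cells 2726 CPM and their unnamed cluster 2665 CPM. Fibroblast-like cells, at 2052 CPM in WB1P and 2115 CPM in WB1P-Myc, and endothelial-like cells, at 1799 and 1835 CPM, had the lowest pooled levels. The fibroblast-like cells of the 2 models had a log2 ratio of 0.04, and the endothelial-like cells one of 0.03.

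**Figure D1:**
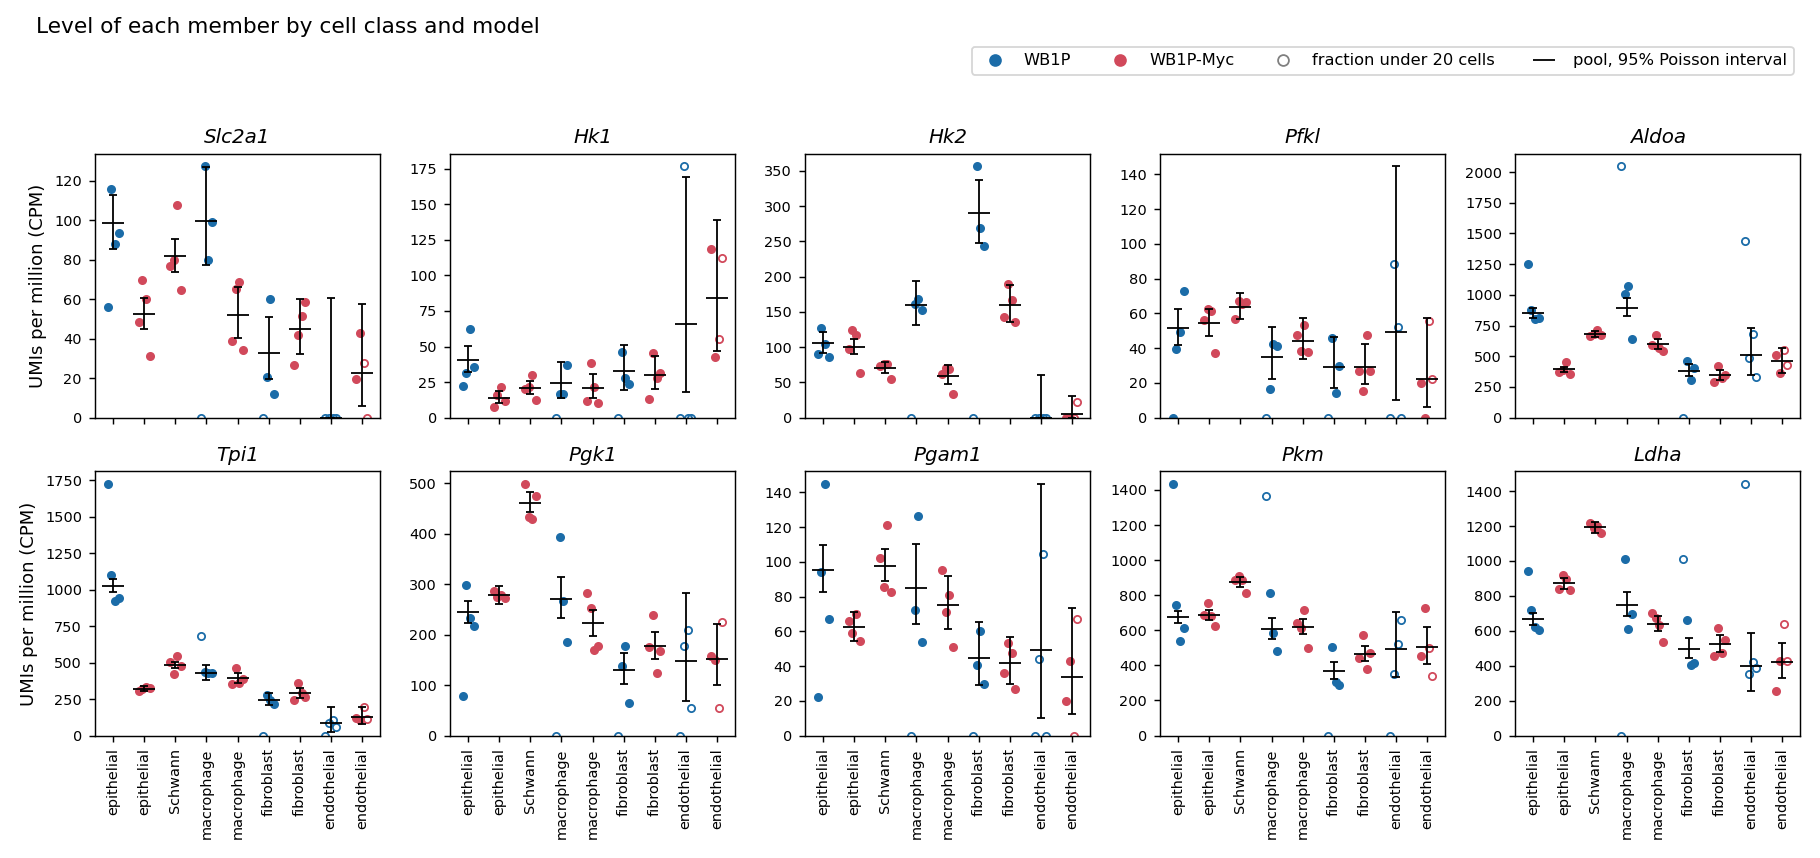
Level of each of the 10 genes, in CPM, by cell class and model. Filled points are droplet fractions, open points are fractions with under 20 cells of the class, and each bar is the pooled level with its exact 95% Poisson interval; Tpi1 in the 4 WB1P epithelial-like fractions (922 to 1725 CPM) lies above every other class, and Hk2 is highest in WB1P fibroblast-like cells.

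The sequences just upstream of 4 of the genes are shown because they carry the short motifs that HIF-1 and MYC are known to bind. In the RefSeq promoter table (GRCm38.p6, the mm10 build; 250 bases before to 50 after each start), ACGTG, searched on both strands, was found in 19.6% of all 32851 windows, in at least 1 window of 21.8% of genes, and in 8 of the 10 genes, all but Pfkl and Tpi1. CACGTG, which reads the same on both strands and contains ACGTG, was in 7.15% of windows, in 8.09% of genes, and in 1 of the 10 genes, Ldha. A match is a description of the letters and not a site of binding. In the 250 bases before the start below, written 5′ to 3′ along the gene's strand and free of annotated exons, capitals mark the motif on either strand.
Ldha (chr7:46845554-46845803, + strand): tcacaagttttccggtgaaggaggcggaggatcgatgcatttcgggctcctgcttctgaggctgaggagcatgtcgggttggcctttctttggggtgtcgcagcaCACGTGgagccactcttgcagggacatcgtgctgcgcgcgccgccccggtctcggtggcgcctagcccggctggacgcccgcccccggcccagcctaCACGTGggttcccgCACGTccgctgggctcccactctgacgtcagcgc
Pgk1 (chrX:106186850-106187099, + strand): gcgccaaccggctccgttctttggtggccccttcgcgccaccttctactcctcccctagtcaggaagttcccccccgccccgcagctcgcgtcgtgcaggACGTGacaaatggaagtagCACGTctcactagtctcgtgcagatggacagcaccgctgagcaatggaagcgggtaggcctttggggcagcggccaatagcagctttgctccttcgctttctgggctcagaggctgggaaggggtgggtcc
Hk2 (chr6:82774455-82774704, - strand): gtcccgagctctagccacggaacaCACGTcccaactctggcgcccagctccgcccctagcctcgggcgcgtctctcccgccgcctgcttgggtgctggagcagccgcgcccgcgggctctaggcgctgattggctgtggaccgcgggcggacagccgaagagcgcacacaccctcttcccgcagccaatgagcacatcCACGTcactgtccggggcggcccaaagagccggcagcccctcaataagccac
Aldoa (chr7:126799255-126799504, - strand): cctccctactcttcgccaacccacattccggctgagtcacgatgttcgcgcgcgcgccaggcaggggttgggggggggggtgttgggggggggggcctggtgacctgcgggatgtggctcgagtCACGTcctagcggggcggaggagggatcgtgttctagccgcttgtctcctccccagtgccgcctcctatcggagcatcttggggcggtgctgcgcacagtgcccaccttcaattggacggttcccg
Ldha held 3 such places, CACGTG at -145 and -48 and ACGTG at -34, counted back from the annotated start with the base before it as -1. Pgk1 held ACGTG at -150 and -131, Hk2 at -226 and -52, and Aldoa at -126. Further windows of the same table differ. A second window of Ldha, whose 250 bases before the start lie at chr7:46846832-46847081, held neither motif, and the first bases after its start match an annotated GENCODE transcript, while those after the start of the printed window match none. Of the other windows of Aldoa, one held the same place at -202 from its own start and the remaining one held none. As given below, Ldha and Pgk1 read higher and Aldoa lower in the non-stromal cells of WB1P-Myc than of WB1P, and Hk2 had overlapping fractions. Any part of the motifs in these values was not tested.

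Between the models, the non-stromal cells of WB1P-Myc held less Tpi1 and Hk1, and, by less than 2-fold, less Aldoa and Slc2a1, but more Ldha and Pgk1. None of the 10 genes was at least 2-fold higher in WB1P-Myc, against 18.2% of the 10979 genes tested, and 2 were at least 2-fold lower, Hk1 and Tpi1, against 12.7%. In 4 of the 10 genes all 4 fractions of one model lay above all 4 of the other (Pgk1 and Ldha above in WB1P-Myc, Aldoa and Tpi1 below), against 38.0% of the genes tested, a share near that of the background. The median of the 10 log2 ratios was -0.31, beside 0.09 over all genes tested. The summed level was 3854 CPM in WB1P and 3371 CPM in WB1P-Myc, a log2 ratio of -0.19 (95% interval -0.23 to -0.16). Genes with high CPM weigh most in this sum, so it does not stand for the 10 genes alike. Tpi1 went from 1028 CPM in WB1P to 398 CPM in WB1P-Myc, while Ldha went from 665 to 1026 CPM. Of the 10 ratios 4 were above 0 and 6 below.

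Other properties differed between the same pools. Ribosomal protein genes took 16.3% of UMIs in WB1P and 22.7% in WB1P-Myc, and mitochondrial genes 3.70% and 2.95%. Schwann cell markers summed to 140 CPM in WB1P (fractions 123 to 190, with 8 of 10 markers read and Foxd3 and Gfra3 at 0) and to 2180 CPM in WB1P-Myc (1897 to 2617). Epithelial markers summed to 8544 CPM (8189 to 14148, 14 of 15 markers, Krt5 at 0) and to 1946 CPM (1419 to 3198). The part of these markers in the results below was not tested. Myc itself read 33.6, 68.1, 93.5 and 49.0 CPM in fractions 1 to 4 of WB1P and 175, 178, 138 and 147 CPM in those of WB1P-Myc. All WB1P-Myc fractions were above all WB1P fractions (log2 ratio 1.26, 95% interval 1.01 to 1.52), and whether tags of the transgene are counted under Myc is not known here.

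Slc2a1 encodes GLUT1, the main glucose transporter of many tumour cells. In non-stromal cells it read 56.0, 116, 88.0 and 93.6 CPM in fractions 1 to 4 of WB1P and 58.8, 63.2, 78.7 and 45.1 CPM in those of WB1P-Myc. WB1P fractions 2 to 4 were above all WB1P-Myc fractions, but WB1P fraction 1 fell among them, so the groups overlapped. The pooled level was 98.5 against 61.2 CPM, 1.61-fold lower in WB1P-Myc (log2 ratio -0.69, 95% interval -0.92 to -0.45).

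Hexokinase, the enzyme that traps glucose in the cell, was read from 2 genes. Hk1, the form found in most tissues, read 22.4, 31.3, 62.3 and 35.7 CPM in WB1P and 18.2, 17.9, 23.6 and 15.0 CPM in WB1P-Myc. WB1P fraction 3 was the highest, and WB1P fraction 1 lay below WB1P-Myc fraction 3. The pooled ratio was 2.19-fold lower in WB1P-Myc (log2 ratio -1.13, 95% interval -1.51 to -0.73), and without WB1P fraction 3 it was -0.82, no longer past the fold. Hk2, the inducible form, read 89.6, 127, 104.5 and 86.2 CPM in WB1P against 79.2, 91.0, 89.9 and 56.6 CPM in WB1P-Myc, with overlapping fractions and a log2 ratio of -0.42 (95% interval -0.64 to -0.19). Pfkl, the liver-type subunit of phosphofructokinase, was at 51.4 and 56.6 CPM, and its interval spanned 0 (log2 ratio 0.14, -0.16 to 0.46).

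Of the enzymes that split the sugar and interconvert its products, Tpi1 had the ratio farthest from 0 of the 10 genes. Aldoa, the aldolase, read 1255, 874, 801 and 808 CPM in fractions 1 to 4 of WB1P against 531, 513, 561 and 501 CPM in WB1P-Myc. All WB1P fractions were above all WB1P-Myc fractions, and WB1P fraction 1 was highest. The pooled level was 1.61-fold lower in WB1P-Myc (log2 ratio -0.69, 95% interval -0.77 to -0.61). Tpi1, triosephosphate isomerase, read 1725, 1101, 922 and 941 CPM in WB1P and 411, 369, 424 and 389 CPM in WB1P-Myc. The lowest WB1P fraction was thus more than 2-fold above the highest WB1P-Myc fraction. The pooled level was 1028 against 398 CPM, 2.58-fold lower in WB1P-Myc (log2 ratio -1.37, 95% interval -1.44 to -1.29), and it stayed past the fold in all 21 alternative settings tried (-1.56 to -1.01).

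Among the later enzymes of the route, Pgk1, phosphoglycerate kinase, read 78.4, 298, 233 and 217 CPM in WB1P and 384, 336, 335 and 361 CPM in WB1P-Myc. Every WB1P-Myc fraction was above every WB1P fraction, and WB1P fraction 1 was the lowest. The pooled level was 1.45-fold higher in WB1P-Myc (log2 ratio 0.54, 95% interval 0.40 to 0.68), and 0.50 without WB1P fraction 1. Pgam1, phosphoglycerate mutase, was at 95.5 and 82.6 CPM with an interval that spanned 0 (log2 ratio -0.21, -0.44 to 0.02). Pkm, pyruvate kinase, whose M1 and M2 forms cannot be told apart in these tables, read 1434, 743, 539 and 612 CPM in WB1P and 786, 809, 761 and 705 CPM in WB1P-Myc. Fraction 1 of WB1P was above, and its fraction 3 and fraction 4 below, all WB1P-Myc fractions, and the log2 ratio was 0.18 (95% interval 0.10 to 0.27).

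Ldha, the lactate dehydrogenase subunit that favours lactate production, read 941, 721, 623 and 602 CPM in WB1P and 1050.4, 1052, 1015 and 978 CPM in WB1P-Myc. All WB1P-Myc fractions were above all WB1P fractions, though the gap between the nearest of them was small. The pooled level was 665 against 1026 CPM, 1.54-fold higher in WB1P-Myc (log2 ratio 0.62, 95% interval 0.54 to 0.71). Without WB1P fraction 1, which had few cells, the ratio of Ldha was 0.65, of Tpi1 -1.32, of Aldoa -0.66, of Hk1 -1.16, of Slc2a1 -0.71 and of Pkm 0.26, and the median of the 10 was -0.34.

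When epithelial-like cells alone were compared, Tpi1, Hk1, Aldoa and Slc2a1 were lower still in WB1P-Myc, and Ldha and Pgk1 were nearer to equal. Past the fold were 0 genes upward, against 15.4% of the 8781 genes tested, and 3 downward (Hk1, Aldoa and Tpi1), against 15.7%. In these 3 genes all 4 WB1P-Myc fractions lay below all 4 WB1P fractions, and 36.8% of the genes tested had fractions that did not overlap. Tpi1 read 307, 316, 334 and 329 CPM in the WB1P-Myc fractions, 3.20-fold lower than in WB1P (log2 ratio -1.68, 95% interval -1.78 to -1.57). Aldoa read 373, 392, 451 and 358 CPM, 2.16-fold lower (log2 ratio -1.11, -1.21 to -1.01), and fell just short of the fold (-0.997) when mitochondrial and ribosomal protein genes were left out of the total. Hk1 read 7.57, 15.6, 21.8 and 11.6 CPM, 2.88-fold lower (log2 ratio -1.52, -2.06 to -1.001). Slc2a1 had a log2 ratio of -0.91 (95% interval -1.21 to -0.62), which passed the fold in 6 of 20 alternatives, among them without WB1P-Myc fraction 2 (-1.07). The ratio of Ldha was 0.39 (0.30 to 0.48), of Pgk1 0.18, of Pkm 0.02, of Pfkl 0.08, of Hk2 -0.08 and of Pgam1 -0.61. The median of the 10 was -0.34, beside 0.02 over all genes tested. In these pools the epithelial markers summed to 8544 CPM in WB1P and 4684 CPM in WB1P-Myc (3563 to 6811, 15 of 15 markers read), the Schwann cell markers to 140 and 907 CPM (863 to 973, 10 of 10), and the macrophage markers to 368 (172 to 526) and 746 CPM (320 to 1126), with Adgre1 at 0. Their part in the differences was not tested.

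**Figure D2:**
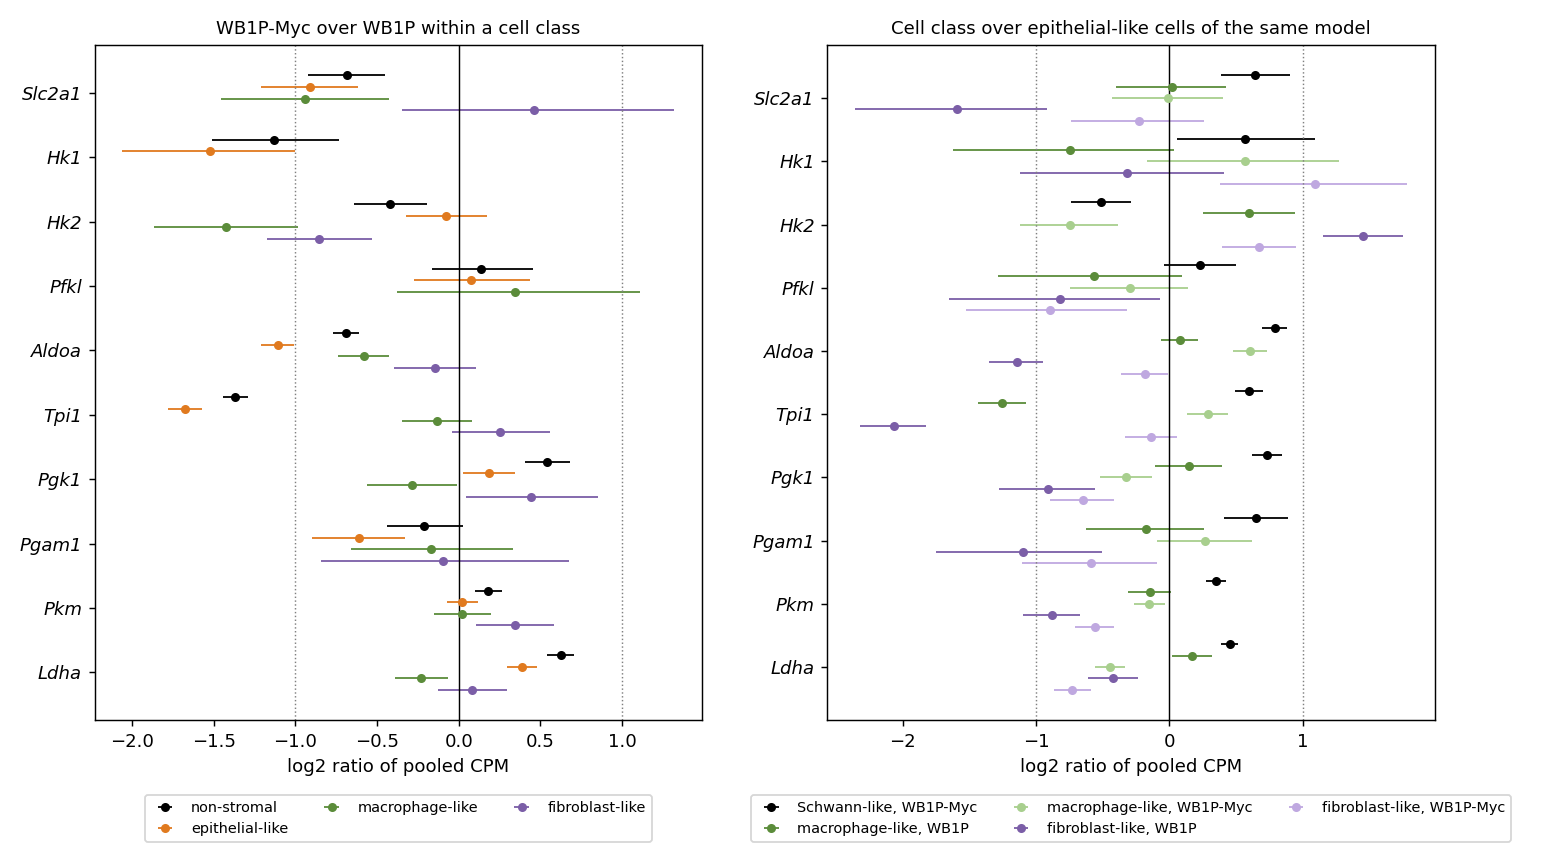
Log2 ratio of pooled CPM for each of the 10 genes, between models within a class (left) and between classes within a model (right). Lines are exact conditional 95% intervals, only genes with at least 50 UMIs over both pools are drawn, and dotted lines mark a 2-fold ratio; Tpi1 is far left in the non-stromal (-1.37) and epithelial-like (-1.68) comparisons and near 0 in the macrophage-like (-0.13) and fibroblast-like (0.26) ones.

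Within the WB1P-Myc tumours, Schwann-like cells held more of the glycolytic enzymes than epithelial-like cells and less Hk2. None of the 10 genes was past the fold, where 11.1% of the 9816 genes tested were at least 2-fold higher and 7.01% at least 2-fold lower. In 6 genes, Aldoa, Tpi1, Pgk1, Pgam1, Pkm and Ldha, all 4 Schwann-like fractions were above all 4 epithelial-like fractions, against 18.7% of the genes tested. Schwann-like and epithelial-like cells share each library, so the fractions can also be set side by side by number: 9 genes were higher in each of the 4 libraries, against 27.8% of the genes tested, and 1, Hk2, was lower in each, against 24.0%. The median of the 10 ratios was 0.58, beside 0.03 over all genes, and it lay between 0.41 and 0.69 in 16 alternatives. The summed level was 4031 against 2834 CPM (log2 ratio 0.51, 95% interval 0.47 to 0.54).

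Slc2a1 read 77.0, 80.1, 108 and 64.8 CPM in the Schwann-like and 48.7, 69.7, 60.1 and 31.3 CPM in the epithelial-like fractions. The ranges overlapped, and the log2 ratio was 0.64 (95% interval 0.39 to 0.91). It was past the fold in 3 of 16 alternatives, at 1.24 with 200 to 4000 genes per barcode, 1.13 under 10% mitochondrial UMIs and 1.14 with clustering on all genes. Aldoa read 661, 682, 717 and 671 CPM in the Schwann-like fractions, for a log2 ratio of 0.79 (0.70 to 0.88) over epithelial-like cells, and was past the fold at 1.09 in thinned cells. Pgk1 read 498, 434, 428 and 475 CPM in Schwann-like and 286, 274, 277 and 273 CPM in epithelial-like fractions (log2 ratio 0.73, 0.62 to 0.84), so the groups stood well apart. Ldha read 1217, 1188, 1203 and 1159 CPM in Schwann-like and 838, 917, 897 and 835 CPM in epithelial-like fractions (log2 ratio 0.45, 0.39 to 0.52). Tpi1 read 504, 421, 544 and 476 CPM (log2 ratio 0.60, 0.49 to 0.70), and Pgam1 102, 85.6, 121 and 82.9 CPM (0.65, 0.41 to 0.89). Hk2 was the exception, with 73.3, 76.5, 75.7 and 55.2 CPM in Schwann-like and 97.3, 124, 117 and 63.7 CPM in epithelial-like fractions. Over all fractions the ranges overlapped, but within each library the Schwann-like value was the lower, and the log2 ratio was -0.51 (95% interval -0.74 to -0.29). The Schwann-like cells were also deeper, with a median of 3419 UMIs per cell against 1871. Schwann cell markers summed to 3879 CPM (3255 to 4859) against 907 CPM, and epithelial markers to 269 CPM (158 to 541) against 4684 CPM.

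The other genes of the route included Gapdh, the dehydrogenase that follows Tpi1, Eno1, the enolase, further transporters of glucose and lactate, and further isoforms. Of 29 listed genes 25 were in the tables, and 16 had enough UMIs in the non-stromal comparison, of which 2 were past the fold upward and 1 downward, against 18.2% and 12.7% of all genes tested, with a median log2 ratio of 0.32 beside 0.09 over all genes. These shares are not above those of all genes. Gapdh read 1143, 1902, 1802 and 1664 CPM in WB1P and 688, 671, 641 and 636 CPM in WB1P-Myc. All WB1P fractions were above all WB1P-Myc fractions (log2 ratio -1.42, 95% interval -1.48 to -1.36). Slc16a3, the exporter MCT4 through which glycolytic cells release lactate, was at 28.4 and 65.6 CPM (log2 ratio 1.21, 0.82 to 1.62). Slc16a7, another monocarboxylate transporter, had 1 UMI in WB1P and 102 in WB1P-Myc (log2 ratio 4.45, 1.94 to 9.77). Eno1, at 992 and 1338 CPM, had a log2 ratio of 0.43, and those of Ldhb, Slc16a1 and Slc2a3 were 0.50, 0.39 and -0.22. Gapdh has many processed copies in the mouse genome, so reads it shares with them are uncertain. In epithelial-like cells 13 of the list were tested, of which 0 were past the fold upward, against 15.4%, and 3 downward (Gapdh -1.76, Bpgm -1.20 and Eno2 -1.90), against 15.7%, with a median of 0.01 beside 0.02. Between Schwann-like and epithelial-like cells 15 were tested, of which 5 were past the fold upward (Eno2 1.79, Slc16a7 1.42, Slc2a3 1.25, Bpgm 1.25 and Slc16a3 1.05), against 11.1%, and 0 downward, against 7.01%, with a median of 0.53 beside 0.03.

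Among genes that low oxygen is known to raise through HIF-1, some had ratios farther from 0 than any of the 10 glycolytic genes in the non-stromal and epithelial-like comparisons between models and in Schwann-like over epithelial-like cells. In non-stromal cells 19 of 20 listed genes were tested, and 3 were past the fold upward, against 18.2% of all genes tested, and 6 downward, against 12.7%, in WB1P-Myc, with a median log2 ratio of -0.41 beside 0.09. Vegfa, which draws in blood vessels, read 168, 226, 227 and 187 CPM in WB1P and 53.4, 64.1, 86.2 and 43.4 CPM in WB1P-Myc. The fractions did not overlap, and the log2 ratio was -1.79. Adm (-2.06), Ndrg1 (-1.82), Ddit4 (-1.60) and Ero1l (-1.59) were also past the fold downward. Outside the naming rule, and chosen after their values were seen, Kdm3a (-1.03) was the remaining lower gene and Angptl4 (1.54), Car12 (1.25) and Mif (1.11) the higher ones. In epithelial-like cells 1 gene was past the fold upward (Car12 2.11, likewise named after its value was seen), against 15.4%, and 10 downward, against 15.7%, led by Vegfa (-2.78), Adm (-2.58), Car9 (-2.40), Ero1l (-2.39) and Ndrg1 (-2.24), and the median was -1.17 beside 0.02. Schwann-like cells held more of the list than the epithelial-like cells of the same tumours, with 11 genes past the fold upward, against 11.1%, 1 downward (Car12 -2.07), against 7.01%, and a median of 1.21 beside 0.03. Bnip3, which marks mitochondria for removal, read 397, 349, 388 and 297 CPM in Schwann-like and 72.5, 86.5, 102 and 68.3 CPM in epithelial-like fractions, with no overlap (log2 ratio 2.13). Car9 (2.26) had the highest ratio of the list, and P4ha2 (2.04), Angptl4 (1.96) and Vegfa (1.68) came after Bnip3.

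**Figure D3:**
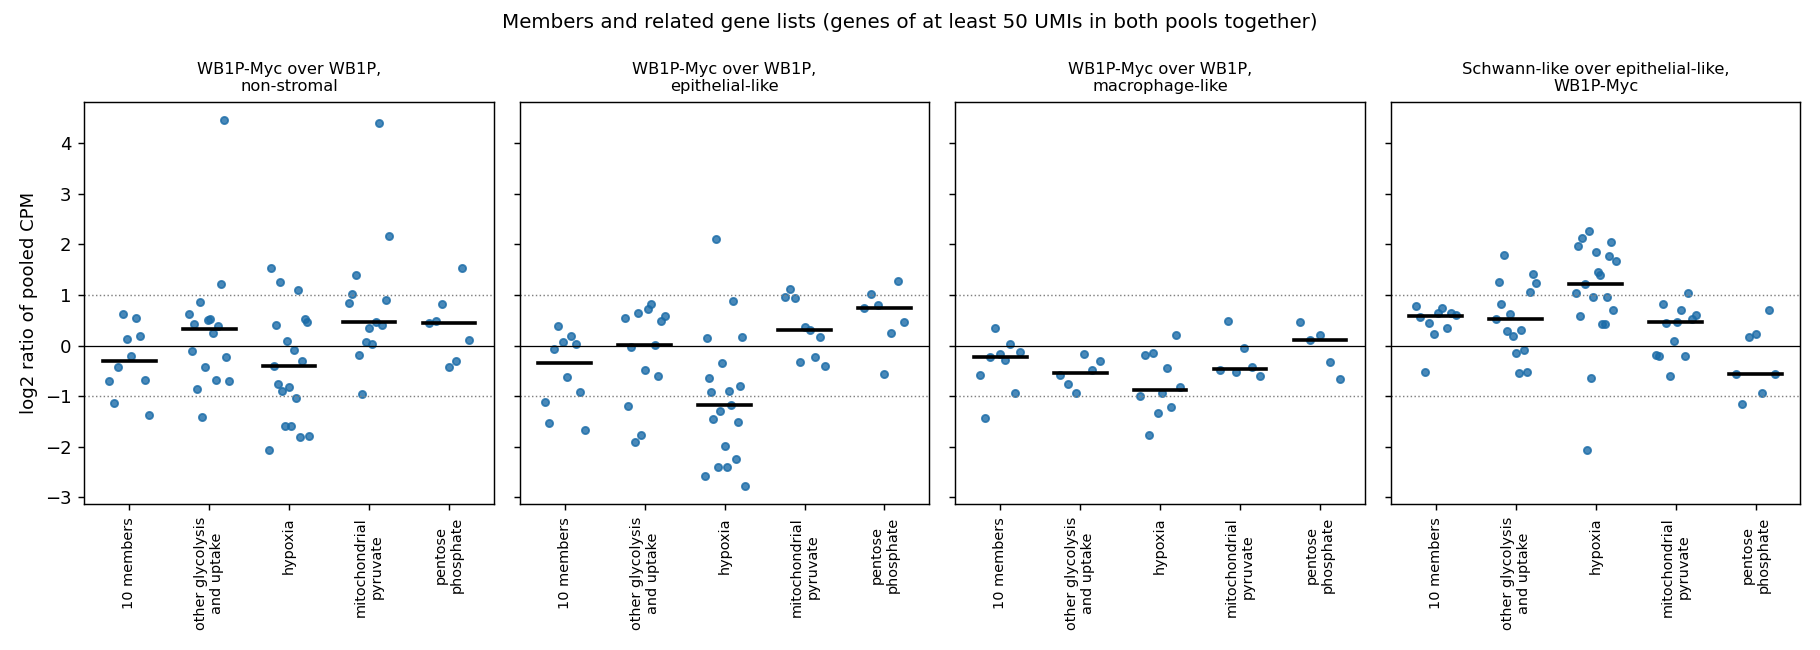
Log2 ratio of pooled CPM for the 10 genes and 4 related gene lists in 4 comparisons. Each point is a gene with at least 50 UMIs over both pools, each bar is the median, and dotted lines mark a 2-fold ratio; the hypoxia list sits lowest in epithelial-like cells between models (median -1.17) and highest in Schwann-like over epithelial-like cells (median 1.21).

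The lists for the routes that branch from glycolysis had medians above 0 in the non-stromal cells of WB1P-Myc over WB1P. Beside their counts stand the 18.2% of all tested genes that were past the fold upward, the 12.7% past it downward and the median of 0.09. Of 7 pentose phosphate genes 1 was past the fold upward and 0 downward: Taldo1, transaldolase, at 101 and 293 CPM (log2 ratio 1.54). The median of this list was 0.45. Of 13 genes for the import of pyruvate into mitochondria and the control of its use there, in either direction, 4 were past the fold upward and 0 downward. The median of this list was 0.46. They were Mpc1, a subunit of the mitochondrial pyruvate carrier (log2 ratio 1.39), Dld (1.01), Pdp1 (84 UMIs against 4 in WB1P, 2.17) and Pdk2 (98 UMIs against 1 in WB1P, 4.39, 95% interval 1.88 to 9.71). Of 4 gluconeogenesis genes Fbp1 (158 UMIs against 2 in WB1P, 4.08, 2.21 to 7.14) and Fbp2 (153 against 3, 3.45, 1.88 to 5.75), which reverse the phosphofructokinase step, were higher, Pck2 was lower (-1.07), and the median was 2.20. Of 8 regulators Myc (1.26) and Mlx (1.09) were past the fold upward and Arnt, the partner of HIF-1α, downward (-1.47), with a median of 0.27. Hif1a and Txnip, which restrains glucose uptake, were at 0.44 and 0.83. In the Schwann-like against the epithelial-like cells of WB1P-Myc, 11.1% of all tested genes were past the fold upward and 7.01% downward, with a median of 0.03. Of 4 gluconeogenesis genes 0 were upward and 2 downward, Fbp1 (-1.40) and Fbp2 (-1.81), with a median of -0.60. Of 7 pentose phosphate genes 0 were upward and 1 downward, Pgd (-1.15), with a median of -0.55. Of 12 mitochondrial pyruvate genes 1 was upward, Pdk3 (1.04), and 0 downward, with a median of 0.46. Of 8 regulators 0 were past it, with a median of -0.02. Myc had a log2 ratio of -0.74 (195 CPM in epithelial-like and 117 CPM in Schwann-like cells).

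In macrophage-like cells Hk2 differed most. It read 161, 169 and 153 CPM in WB1P fractions 2 to 4 and 62.4, 71.1, 68.7 and 34.1 CPM in the WB1P-Myc fractions. The WB1P fractions of at least 20 cells, which leave out fraction 1 with its 2 macrophage-like cells, were all above the WB1P-Myc fractions. The ratio was 2.68-fold lower in WB1P-Myc (log2 ratio -1.42, 95% interval -1.87 to -0.99), and it stayed past the fold in the 20 alternatives that left at least 50 UMIs, nearest to it with equal weight of the fractions (-1.03). Slc2a1 read 127, 80.1 and 99.2 CPM against 38.6, 65.1, 68.7 and 34.1 CPM, again without overlap, and was 1.92-fold lower (log2 ratio -0.94, -1.45 to -0.43). It passed the fold in 6 of the 20 alternatives with at least 50 UMIs, among them without WB1P fraction 3 (-1.09), WB1P-Myc fraction 2 (-1.08) or WB1P-Myc fraction 3 (-1.10). Of the 9 genes with enough UMIs, 0 were past the fold upward and 1 downward, against 5.38% and 3.11% of the 5148 genes tested, and 2 had fractions that did not overlap, against 18.0%. The other 7 lay between -0.58 (Aldoa) and 0.35 (Pfkl), with Tpi1 at -0.13, Ldha at -0.23 and Pkm at 0.02. Over the 9 genes the median was -0.23, beside 0.13 over all genes tested, and with Hk1, which had under 50 UMIs, it was -0.22. Of the other glycolytic genes 6 were tested and 0 were past the fold in either direction, with a median of -0.54 (Gapdh -0.75, Eno1 -0.59). Of 10 hypoxia genes 3 were past the fold downward (Ddit4 -1.76, Ero1l -1.33 and Ndrg1 -1.21) and 0 upward, with a median of -0.88. In these pools T and NK cell markers summed to 201 CPM in WB1P (161 to 248) and 246 CPM in WB1P-Myc (187 to 309), with 10 of 11 read and Cd8a at 0. Epithelial markers summed to 474 (188 to 674) and 313 CPM (163 to 599), and Schwann cell markers to 46.9 (38.0 to 55.4) and 215 CPM (181 to 268). Their part in the differences was not tested.

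Fibroblast-like cells held the highest Hk2 level of the classes with at least 50 cells, with 357, 269 and 243 CPM in WB1P fractions 2 to 4 and 143.5, 190.2, 167 and 135 CPM in the WB1P-Myc fractions. The fractions did not overlap, and the ratio was 1.81-fold lower in WB1P-Myc (log2 ratio -0.85, 95% interval -1.18 to -0.53). The ratio was past the fold, at -1.16, in thinned cells, and was 0.02 in the MiSeq tables, where it rested on 23 UMIs. Of 8 genes with enough UMIs, 0 were past the fold in either direction, where 2.67% of the 4420 genes tested were at least 2-fold higher and 1.99% lower, and 1, Hk2, had fractions that did not overlap, against 13.6%. Slc2a1, at 0.46, was at 1.46 when WB1P fraction 3 was left out, which leaves 49 UMIs, too few to count as past the fold. The median of the 8 genes was 0.17, beside 0.06 over all genes tested. With Hk1 and Pfkl, which had under 50 UMIs, the median of the 10 genes was 0.04. Of 8 other glycolytic genes Ldhb, the other main lactate dehydrogenase subunit, was past the fold upward (1.77) and 0 downward, with a median of 0.48. Of 13 hypoxia genes 0 were past the fold in either direction, with a median of -0.17. The summed Schwann cell markers of these pools were 25.7 CPM for WB1P (17.8 to 35.7, 5 of 10 markers read) and 186 CPM for WB1P-Myc (108 to 318, 7 of 10 read), without overlap. Epithelial markers summed to 363 (219 to 533) and 217 CPM (103 to 381), and macrophage markers to 648 (296 to 1143) and 451 CPM (274 to 619). Their part in the differences was not tested.

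Against the epithelial-like cells of the same tumours, fibroblast-like cells of WB1P held more Hk2 and less Tpi1, Slc2a1, Aldoa and Pgam1. Hk2 alone was past the fold upward (log2 ratio 1.45), against 13.0% of the genes tested, and 4 were past it downward, against 25.1%: Tpi1 (-2.07, 4.19-fold lower), Slc2a1 (-1.60), Aldoa (-1.15) and Pgam1 (-1.10). The median of the 10 was -0.89, beside -0.34 over all genes. In WB1P-Myc 1 gene was past the fold upward, Hk1 (1.10), against 18.7%, and 0 downward, against 26.4%, with a median of -0.39 beside -0.30. The call on Hk1 held in 7 of the 15 alternatives that left at least 50 UMIs. The ratio was 0.83 without WB1P-Myc fraction 2 and 0.99 without fraction 4, and it lay between 0.76 and 0.99 with 200 to 4000 genes per barcode, under 10% mitochondrial UMIs, 3 other clustering settings (all genes, a Leiden resolution of 0.6, or the most variable genes alone) or the total without mitochondrial and ribosomal protein genes. In the MiSeq tables the WB1P ratio of Hk2 was 0.46 (52 UMIs, 95% interval -0.60 to 1.42) and that of Aldoa -0.40, with DESeq2 size factors Aldoa was at -0.92 and Pgam1 at -0.87, and with TMM factors Pgam1 was at -0.98, none of them past the fold. In WB1P macrophage-like cells Tpi1 (-1.25) was the 1 gene past the fold downward, against 27.1%, and 0 were past it upward, against 13.7%. Tpi1 was at -0.90 there in the MiSeq tables and at -0.99 with DESeq2 size factors, and Hk1, at -0.75, was at -1.37 without WB1P fraction 4. In WB1P-Myc 0 were past the fold in either direction, against 19.9% upward and 27.3% downward, and Tpi1 was at 0.29 and Aldoa at 0.60. The medians were -0.06 and -0.08, beside -0.38 and -0.25 over all genes. Ldhb was far lower than in epithelial-like cells in both stromal classes and both models (log2 ratio -3.36 and -3.47 in macrophage-like, -3.51 and -2.46 in fibroblast-like cells, WB1P first). Ldhb encodes the subunit of lactate dehydrogenase that favours pyruvate. Hif1a was higher in each of the same 4 comparisons (1.39, 1.41, 1.05 and 1.23).

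The share of Hk2 in hexokinase UMIs was read in each class and model. Hk2 made up 72.2% of Hk1 and Hk2 UMIs in the epithelial-like cells of WB1P (216 of 299 UMIs, exact Clopper-Pearson 95% interval 66.8 to 77.2) and 87.7% (84.0 to 90.7) in those of WB1P-Myc. It made up 77.0% (72.6 to 81.0) in Schwann-like cells and 71.6% (83 of 116 UMIs, 62.4 to 79.5) in the unnamed cluster of WB1P-Myc. Macrophage-like cells were at 86.9% (79.6 to 92.3) and 74.0% (64.5 to 82.1), WB1P first, and fibroblast-like cells at 89.9% (84.7 to 93.8) and 84.2% (78.0 to 89.1). In both of these classes the intervals of the models overlapped. Endothelial-like cells were at 0 of 4 UMIs in WB1P and 1 of 16 UMIs in WB1P-Myc (6.25%, 0.158 to 30.2), the one class in which nearly all hexokinase UMIs were of Hk1.

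**Figure D4:**
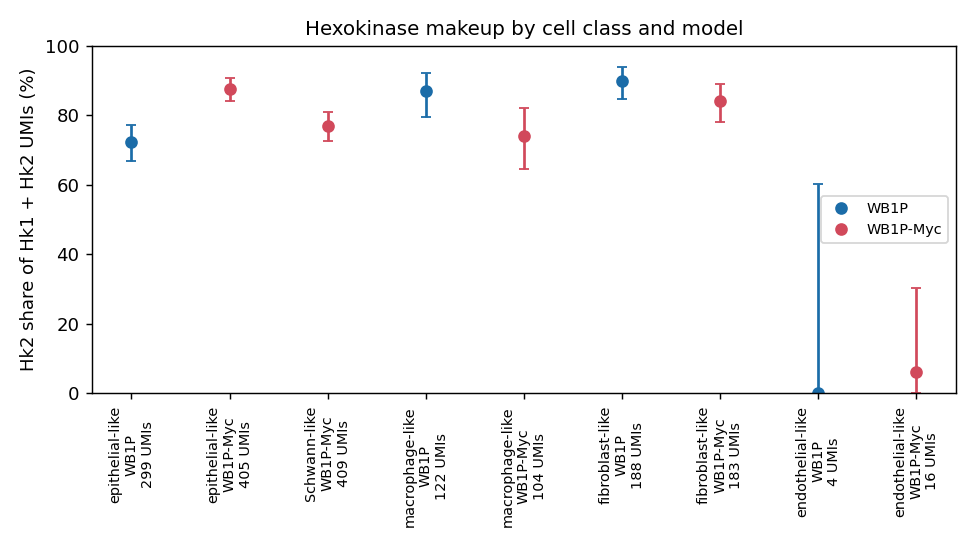
Share of Hk2 among Hk1 and Hk2 UMIs by cell class and model, with exact Clopper-Pearson 95% intervals and the number of UMIs under each class. Hk2 makes up 72.2% to 89.9% in every class drawn but the endothelial-like cells, where 0 of 4 and 1 of 16 UMIs were Hk2.

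Endothelial-like cells were few, and 3 of the 10 genes reached 50 UMIs over both models: Aldoa (512 CPM in WB1P and 460 in WB1P-Myc), Pkm (495 and 505) and Ldha (396 and 421). Slc2a1 had UMIs in 0 of 37 cells of WB1P and 4 of 73 cells of WB1P-Myc, so no difference was detectable at this depth. Pericyte markers summed to 858 CPM in the endothelial-like cells of WB1P and 1840 CPM in those of WB1P-Myc. In fibroblast-like cells they summed to 751 and 783 CPM. Fibroblast markers summed to 264 and 774 CPM in the endothelial-like cells, WB1P first. The part of these markers in the endothelial-like values was not tested.

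Per cell, the same pattern was read as shares after each cell was thinned to 600 UMIs. Tpi1 had a UMI in 44.1% of the epithelial-like cells of WB1P (95% interval 40.3 to 47.9), in 16.2% (14.2 to 18.5) of those of WB1P-Myc and in 25.1% (22.5 to 27.9) of Schwann-like cells. Without thinning these shares were 73.4%, 46.4% and 69.7%. Ldha had a UMI in 32.2%, 36.9% and 45.5% of the same cells after thinning (63.0%, 71.4% and 87.8% without). Hk2 had one in 12.4% of fibroblast-like cells of WB1P and 7.66% of those of WB1P-Myc (41.7% and 31.8% without thinning), and in 10.1% and 3.29% of macrophage-like cells (19.7% and 9.59% without). Thinning left out 1 cell, of the epithelial-like WB1P-Myc class. The share of cells with no UMI of any of the 10 genes after thinning was 16.9% and 25.6% in epithelial-like cells of WB1P and WB1P-Myc, 16.5% in Schwann-like, 24.2% and 29.0% in macrophage-like, 36.2% and 39.4% in fibroblast-like and 45.9% and 34.2% in endothelial-like cells. Free RNA also gives UMIs. For Hk2 the endothelial-like cells, in which it was read at or near 0, give a comparison: after thinning it had a UMI in 0% of 37 cells of WB1P (0 to 9.49) and in 1.37% of 73 cells of WB1P-Myc (0.0347 to 7.40), at median depths of 1397 and 1949 UMIs per cell, beside 2252 and 2717 in fibroblast-like and 1458 and 1488 in macrophage-like cells. The 3.29% of WB1P-Myc macrophage-like cells lies within the interval of the WB1P-Myc endothelial-like cells, so the thinned shares cannot tell it from background. Pooled without thinning, Hk2 read 59.8 CPM (47.2 to 74.7) in these macrophage-like cells and 5.61 CPM (0.142 to 31.3, 1 UMI) in the endothelial-like ones. These pooled intervals did not overlap. For the other genes no class was set apart as a background. From markers of other classes the share of free RNA was put at 3.20% to 16.0% of UMIs, 6.69% in the epithelial-like cells of WB1P and 16.0% in those of WB1P-Myc.

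In most classes, cells with at least 1 UMI of the hypoxia list after thinning had a higher summed level of the 10 genes than cells with none. In the epithelial-like cells of WB1P, 487 cells with such a UMI held 4257 CPM and 189 cells without held 2954 CPM (log2 ratio 0.53, 95% interval 0.35 to 0.71), with 3 fractions between 0.08 and 0.90. In Schwann-like cells the values were 4262 and 2953 CPM (0.53, 0.33 to 0.73), with each fraction between 0.46 and 0.61. In the epithelial-like cells of WB1P-Myc the ratio was smaller, 0.28 (0.12 to 0.44), with fractions between 0.04 and 0.45. The largest ratio among classes of at least 50 cells was in the macrophage-like cells of WB1P, 3856 against 2169 CPM (0.83, 0.58 to 1.09), with fractions of 0.65 to 1.01, and in those of WB1P-Myc it was 0.44 (0.26 to 0.63). Fibroblast-like cells were at 0.36 (-0.03 to 0.77) and 0.59 (0.22 to 0.97), while the endothelial-like cells, which were few, were at 1.04 in WB1P (0.08 to 2.04, 16 cells with such a UMI and 21 without) and at -0.29 in WB1P-Myc (-0.99 to 0.40). The unnamed cluster of WB1P-Myc was at 0.14, with an interval that spanned 0 (-0.20 to 0.50, 197 cells with such a UMI and 68 without), and its 1 fraction with enough cells was at -0.06. Over all genes the median ratio in these splits was between -0.04 and 0.05. Among single genes with at least 50 UMIs, 48.2% to 55.6% of all genes were above 0 in the pools named next. Of the 10 genes, 5 of 5 and 5 of 6 were above 0 in epithelial-like cells, WB1P first, with Hk2 (-0.20) the exception. In Schwann-like cells 7 of 7 were, in macrophage-like 5 of 5 in both models, in fibroblast-like 1 of 2 and 3 of 3, and in the unnamed cluster 2 of 3. The cells of a class share their libraries, so these intervals cover counting only.

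**Figure D5:**
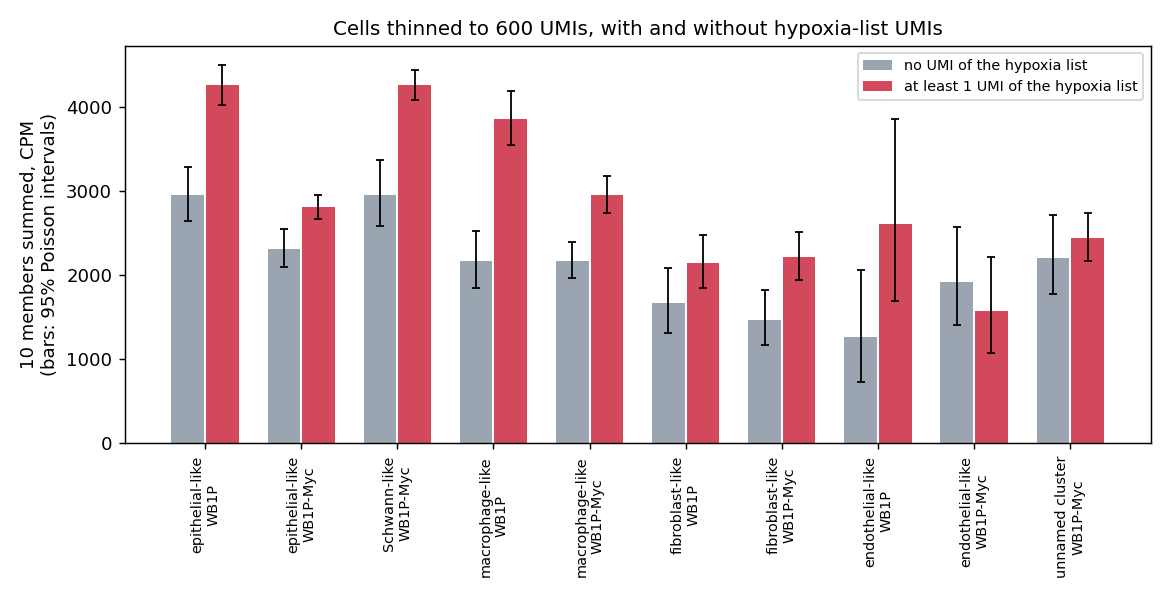
Summed level of the 10 genes, in CPM, in cells thinned to 600 UMIs, split by whether a cell had at least 1 UMI of the hypoxia list. Bars start at 0 and carry exact 95% Poisson intervals; the red bar is the higher in every class and model drawn but the endothelial-like cells of WB1P-Myc.

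The MiSeq tables hold further barcodes under the same fraction names, and each shared 2 to 11 barcodes with its HiSeq namesake. Their 614 non-stromal cells of WB1P-Myc were 518 Schwann-like, 92 unnamed and 4 epithelial-like cells, a make-up unlike that of the HiSeq pool. In the MiSeq non-stromal cells, Tpi1 read 785, 772, 873 and 915 CPM in WB1P and 371, 389, 412 and 460.2 CPM in WB1P-Myc (log2 ratio -1.01). Ldha read 471, 550, 582 and 620 CPM against 1036, 1107, 1061 and 1056 CPM (log2 ratio 0.96). In neither gene did the fractions of the models overlap. The share of all MiSeq genes that did the same was not computed, and in the HiSeq tables it was 38.0%, so this is not set above background. Hk1 was at -1.52 (95% interval -2.39 to -0.66), Slc2a1 at -0.71 (-1.30 to -0.11) and Pgk1 at 0.42 (0.15 to 0.70), but Aldoa was at -0.14 (-0.33 to 0.05), an interval that spanned 0. The stromal classes were too shallow there for a call on Hk2 or Slc2a1. In macrophage-like cells Hk2 had 16 UMIs in WB1P and 3 in WB1P-Myc (log2 ratio -2.31, -4.74 to -0.51), and Slc2a1 had 15 and 4 (-1.81, -3.86 to -0.16). In fibroblast-like cells Hk2 had 12 and 11 UMIs and a log2 ratio of 0.02 (-1.30 to 1.33), an interval that holds both 0 and the -0.85 of the HiSeq tables.

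Across the 10 pools of at least 20 cells, Ormdl1 was the gene whose level ran most like the summed 10 genes (Pearson r of log2 CPM with 10 added, 0.952), followed by Fam204a (0.937), Ptpn2 (0.932), Ghitm (0.915) and Tmem60 (0.915), out of 7867 genes. Ormdl1 read between 0 and 26.0 CPM in these pools, so its low values rested on few UMIs. Among the 10 genes themselves r was highest for Pgam1 (0.910) and Pgk1 (0.865) and below 0 for Hk1 (-0.618). Hk1 read highest in the endothelial-like pools, whose summed levels were the lowest. It was at 66.0 CPM on 4 UMIs in WB1P and 84.2 CPM on 15 UMIs in WB1P-Myc, so its r leaned on few counts. These pools share libraries and models, so the values only describe them.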

How the data were processed

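Per the methods and labels, the authors made Drop-seq libraries from sorted live tumour cells, 4 droplet fractions per model, and deposited UMI counts per gene and barcode from dropseq-tools, with no normalization, for a HiSeq and a MiSeq run. The submitters' processing notes name mm10 and Scanpy, and the aligner and the strand setting of the counting are not given in the sources used here. Each of the 8 HiSeq tables held 1000 barcodes and 256985 to 4960334 UMIs.

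Barcodes with 450 to 4000 genes and under 20% mitochondrial UMIs were kept, after the limits of 200 genes per barcode and 3 cells per gene. No doublet caller was run, so only the limit of 4000 genes bears on doublets. After scaling of each cell to 10000 counts and a log transform, cells were clustered with Scanpy 1.11.5 (30 components, 20 neighbours, Leiden resolution 0.3, igraph 0.11.9) on all genes but 87 that are described or listed here. Clusters were named from marker lists. Counts were then summed over the cells of a class and model and given as CPM. Poisson, conditional binomial and Clopper-Pearson intervals are exact at 95% and cover counting error only. Ratios need at least 50 UMIs, a group at 0 is set to a floor of 3 counts, and shares of cells were also read after thinning each cell to 600 UMIs. Python 3.11.15, numpy 2.4.6, scipy 1.17.1, pandas 2.3.3, anndata 0.12.19, scikit-learn 1.9.0 and matplotlib 3.10.9 were used, with scaling factors from edgeR 4.0.16 and DESeq2 1.42.0 in R 4.3.3. The steps were checked on simulated counts.

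The 10 genes, the lists and the naming rule were chosen with earlier results of these data known. The non-stromal pool and the limit of 20 cells per fraction were chosen after seeing the data. The text names the 10 genes always, from each list at most 5 genes past the fold per comparison by size, and Gapdh, Slc2a3, Eno1, Ldhb, Slc16a1, Slc16a3, Hif1a, Myc, Txnip, Vegfa and Bnip3, plus the 5 genes most alike over pools of at least 20 cells with at least 200 UMIs. Pdk1 is in both the hypoxia and the mitochondrial list. Related gene copies counted apart held at most 0.729% as many UMIs as their parent, and reads shared with unlisted copies are uncertain. Alternatives were the MiSeq tables, other barcode limits, clustering settings, scalings, thinning, free RNA subtraction, equal weights and leaving out each fraction.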

Additional observations from a re-analysis of the deposited data

Results flagged for a closer look

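In 3 of 50 groups of 4 fractions, the gap between the highest or lowest fraction and its nearest neighbour, divided by the whole range, exceeded Dixon's 95% critical value, where chance gives about 1 in 20 groups. The measure depends on how close the other fractions lie to each other and not on the size of the gap alone. Aldoa read 1255 CPM in fraction 1 of the WB1P epithelial-like cells, the fraction with 60 such cells, while its other fractions read 801 to 874 CPM. Hk2 read 55.2 CPM in fraction 4 of the Schwann-like cells of WB1P-Myc, below 73.3 to 76.5 CPM in the others. Pfkl read 56.8 CPM in fraction 1 of the same cells, below 65.6 to 67.4 CPM in the others.

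Tpi1 was lower in macrophage-like than in epithelial-like cells in WB1P (log2 ratio -1.25) and higher in WB1P-Myc (0.29). In neither model did the fractions of at least 20 cells overlap between these classes. The level in macrophage-like cells was similar in the models (log2 ratio -0.13), while that in epithelial-like cells was not (-1.68). The difference between the 2 ratios was not tested, since each model is 1 sample.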

How the results depend on the processing

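No ratio of the 10 genes, and no median of the hypoxia list, that was past the fold changed sign under the alternatives run, which were not applied to the other listed genes. The median log2 ratio of the 10 genes lay between -0.48 and -0.17 in non-stromal cells, -0.51 and -0.20 in epithelial-like, -0.37 and -0.01 in macrophage-like and -0.03 and 0.36 in fibroblast-like cells between models. For Schwann-like over epithelial-like cells it lay between 0.41 and 0.69, for fibroblast-like over epithelial-like cells from -1.23 to -0.67 (WB1P) and from -0.62 to -0.18 (WB1P-Myc), and for macrophage-like over epithelial-like cells between -0.26 and 0.20 in WB1P and -0.31 and 0.08 in WB1P-Myc, on both sides of 0. Among ratios of the 10 genes with at least 50 UMIs, leaving out a fraction ended 3 calls past the fold and made 10, other settings ended 14 and made 24, and 8 more left too few UMIs for a call. The cause was not tested. Among those made by leaving out a fraction were, in fibroblast-like over epithelial-like WB1P cells, Pgk1 at -1.27 without WB1P fraction 3, and Pfkl at -1.49 and Pkm at -1.10 without WB1P fraction 2, and, in WB1P-Myc, Pfkl at -1.20 and -1.01 without WB1P-Myc fraction 3 or 4. Without mitochondrial and ribosomal protein genes in the total, ratios between models moved by 0.11 in epithelial-like and non-stromal cells, and those of macrophage-like and fibroblast-like over epithelial-like cells by -0.10 to -0.23. TMM moved the macrophage-like ratio between models by -0.11 and those 4 class ratios by 0.12 to 0.21, and DESeq2 size factors moved them by -0.14 and by up to 0.26. The MiSeq tables held 4 epithelial-like cells of WB1P-Myc, too few for a value. Between models, no paired analysis was possible because the fractions share only numbers and no result comes from a test. Classes of one model share each library and could be paired, which was done for Schwann-like over epithelial-like cells and was not run for macrophage-like and fibroblast-like cells. With 1 sample per model, counting intervals say nothing of differences between tumours.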

Other observations

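The other glycolytic genes were also compared between the stromal classes and the epithelial-like cells of the same tumours, as values with no test. In macrophage-like cells of WB1P 2 of 11 tested genes were past the fold upward, against 13.7% of all genes tested, and 4 downward, against 27.1% (median log2 ratio -0.86, beside -0.38 over all genes). In WB1P-Myc 2 of 13 were past it upward, against 19.9%, and 6 downward, against 27.3% (-0.74, beside -0.25). Pfkfb3, which makes the activator of phosphofructokinase, was higher in both models (log2 ratio 2.21 in WB1P, 95% interval 1.35 to 3.11, against 1.23 in WB1P-Myc, 0.66 to 1.78). Slc16a3, which exports lactate, was at 1.84 and 0.96, while Slc16a1, which can carry lactate either way, was lower (-1.86 and -1.73). In fibroblast-like cells of WB1P 0 of 10 were past the fold upward, against 13.0%, and 6 downward, against 25.1% (median -1.19, beside -0.34), among them Gapdh (-1.97) and Eno1 (-1.69). In WB1P-Myc 2 of 13 were past it upward, against 18.7%, and 4 downward, against 26.4%, shares near those of all genes (-0.49, beside -0.30), with Gapdh at -0.43 and Eno1 at -0.96.

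The hypoxia list did not move as a block in fibroblast-like against epithelial-like cells. In WB1P 3 of 18 tested genes were past the fold upward, against 13.0% of all genes tested, and 7 downward, against 25.1%. In WB1P-Myc 5 of 18 were past it upward, against 18.7%, and 3 downward, against 26.4%. The list's medians were -0.83 and -0.05, beside -0.34 and -0.30 over all genes. Angptl4, a secreted inhibitor of lipoprotein lipase, was higher than in epithelial-like cells in WB1P (3.47) and WB1P-Myc (3.65). So was P4ha2, which hydroxylates collagen (2.05 and 2.83). Vegfa was at -0.84 in WB1P and 1.79 in WB1P-Myc in fibroblast-like cells, and at 0.45 and 2.40 in macrophage-like cells. The Vegfa level of epithelial-like cells was 211 CPM in WB1P and 30.8 CPM in WB1P-Myc.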
